A study of Mus musculus with 3 samples.

Results

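The cytosolic ribosomal protein genes were read in an Ets1 chromatin immunoprecipitation sequencing (ChIP-seq) experiment on Min6 cells, a mouse insulinoma line used as a model of pancreatic β cells. The genes were found by name: every gene whose symbol begins with Rpl or Rps and a digit, together with Rpsa, Rplp0, Rplp1 and Rplp2, without the Rps6k kinases and the pseudogenes. This gave 47 of the 19054 genes named in the deposited files. Of them 24 are core large subunit genes and 17 are core small subunit genes. The other 6 are the paralogs Rpl7l1, Rpl10l, Rpl39l, Rps27l and Rps27rt, and Rps19bp1, which carries a ribosomal protein's name but encodes a binding partner of one. The GENCODE M21 annotation holds 86 protein-coding genes that match the same rule, and 39 of those, among them Rpsa, Rplp0 and Rplp2, are not named in the files used here.

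The 3 groups held 1 library each, so no difference could be checked against replicates and p-values were not computed. The Ad-GFP library was an Ets1 immunoprecipitate (antibody CST in the labels) from cells given the adenovirus Ad-GFP for 24 h. The Ad-Ets-1 library was the same immunoprecipitate from cells given Ad-Ets-1, an adenovirus that overexpresses Ets-1, for 24 h. The third library was input DNA, whose virus the labels do not state. All cells grew in 25 mM glucose and were crosslinked in 1% formaldehyde for 10 min. The comparison table recorded totals of 1938473 reads for Ad-Ets-1, 1775757 for Ad-GFP and 3937473 for the input. Ratios are of reads scaled to these totals, with 95% exact conditional binomial intervals on fragments of 2 reads. These intervals cover counting error only and not the spread between samples, since each group held 1 library. PCR copies of a molecule are not independent reads, and any left in the counts would make the intervals too narrow. Expression was not measured. Of the β-cell genes, Ins2, which encodes insulin, held 28 promoter reads in the Ad-Ets-1 library, 21 in the Ad-GFP library and 21 in the input. Ins1, the other insulin gene, held 10, 0 and 2, Mafa 39, 32 and 20, and Neurod1 4, 2 and 1, while Pdx1 and Nkx6-1 had no promoter region.

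Ribosomal proteins assemble with ribosomal RNA into the large and the small subunit of the ribosome, and their genes are among the most strongly transcribed in any growing cell. Their promoters are known for a start site within a run of pyrimidines (the terminal oligopyrimidine tract), for few TATA boxes, and for sites of general factors. Ets1 belongs to the ETS family, whose members bind a GGAA core, and other ETS factors such as GABPA are known to act at ribosomal protein promoters.

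Promoter windows of 300 bases, 250 before the start site and 50 from it onward, were matched by symbol to 35 of the 47 genes in the RefSeq table (build GRCm38.p6). Genes without a matched window included Rpl3, Rpl7, Rpl17, Rpl21, Rpl29, Rpl32, Rpl36, Rplp1, Rps14, Rps20 and Rps29. The sequences below are shown because Rpl9, Rpl28, Rpl35a and Rps21 held the most Ad-Ets-1 reads at their start sites among the genes with a window, in regions that the files name for them, and because Rpl26, Rpl31, Rps6 and Rps27l hold the ETS word CCGGAAGT. They run 5′ to 3′ on the gene's own strand. Capitals mark CCGGAA or CAGGAA on either strand (TTCCTG is CAGGAA read on the opposite strand), with GT added where the 8-letter ETS word is complete, AAGATGGC on either strand (GCCATCTT on the opposite strand), and CTCTTT or CTTTCC on the gene strand within 20 bases of the start. The windows are Rpl9 at chr5:65391382-65391681 (minus strand), Rpl28 at chr7:4792715-4793014 (plus), Rpl35a at chr16:33056232-33056531 (plus), Rps21 at chr2:180257129-180257428 (plus), Rpl26 at chr11:68901316-68901615 (plus), Rpl31 at chr1:39367601-39367900 (plus), Rps6 at chr4:86857318-86857617 (minus) and Rps27l at chr9:66945836-66946135 (plus).
Rpl9: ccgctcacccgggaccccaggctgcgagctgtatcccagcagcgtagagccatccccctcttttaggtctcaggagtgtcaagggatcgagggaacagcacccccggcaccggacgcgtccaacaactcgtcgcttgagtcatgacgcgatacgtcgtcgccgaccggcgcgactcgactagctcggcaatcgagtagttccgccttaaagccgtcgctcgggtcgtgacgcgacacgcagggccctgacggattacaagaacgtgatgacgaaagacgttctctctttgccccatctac
Rpl28: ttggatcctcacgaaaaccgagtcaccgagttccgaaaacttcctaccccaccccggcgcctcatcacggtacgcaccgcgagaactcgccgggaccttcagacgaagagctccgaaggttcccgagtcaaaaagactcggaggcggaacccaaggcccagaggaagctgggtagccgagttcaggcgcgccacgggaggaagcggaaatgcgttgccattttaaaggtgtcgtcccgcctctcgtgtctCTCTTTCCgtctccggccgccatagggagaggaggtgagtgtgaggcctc
Rpl35a: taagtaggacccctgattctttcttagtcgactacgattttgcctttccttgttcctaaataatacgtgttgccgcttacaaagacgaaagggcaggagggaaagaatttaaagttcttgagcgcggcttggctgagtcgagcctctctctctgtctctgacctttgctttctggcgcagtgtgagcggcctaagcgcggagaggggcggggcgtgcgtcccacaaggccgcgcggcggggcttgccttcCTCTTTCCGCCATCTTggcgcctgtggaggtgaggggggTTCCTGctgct
Rps21: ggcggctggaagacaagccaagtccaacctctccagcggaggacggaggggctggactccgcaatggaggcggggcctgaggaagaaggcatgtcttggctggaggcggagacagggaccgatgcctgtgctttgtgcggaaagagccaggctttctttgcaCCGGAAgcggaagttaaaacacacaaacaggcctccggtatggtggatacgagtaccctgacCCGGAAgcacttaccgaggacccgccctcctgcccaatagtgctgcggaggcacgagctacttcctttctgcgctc
Rpl26: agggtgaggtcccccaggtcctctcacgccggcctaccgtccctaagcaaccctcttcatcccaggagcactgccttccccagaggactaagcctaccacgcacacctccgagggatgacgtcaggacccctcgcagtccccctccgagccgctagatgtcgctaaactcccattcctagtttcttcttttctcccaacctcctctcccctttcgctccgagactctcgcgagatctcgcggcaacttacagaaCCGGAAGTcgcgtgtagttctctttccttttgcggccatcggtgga
Rpl31: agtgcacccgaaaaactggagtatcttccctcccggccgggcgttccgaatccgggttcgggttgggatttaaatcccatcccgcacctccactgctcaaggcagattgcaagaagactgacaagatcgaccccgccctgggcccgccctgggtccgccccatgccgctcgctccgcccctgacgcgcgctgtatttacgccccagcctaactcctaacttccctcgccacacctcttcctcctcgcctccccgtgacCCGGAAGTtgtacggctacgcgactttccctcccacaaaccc
Rps6: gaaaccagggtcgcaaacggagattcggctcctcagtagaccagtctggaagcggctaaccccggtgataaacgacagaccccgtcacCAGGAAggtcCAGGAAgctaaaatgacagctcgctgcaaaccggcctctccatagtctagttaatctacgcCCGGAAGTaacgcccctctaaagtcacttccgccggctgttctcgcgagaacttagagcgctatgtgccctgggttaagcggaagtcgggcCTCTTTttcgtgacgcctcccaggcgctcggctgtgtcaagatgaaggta
Rps27l: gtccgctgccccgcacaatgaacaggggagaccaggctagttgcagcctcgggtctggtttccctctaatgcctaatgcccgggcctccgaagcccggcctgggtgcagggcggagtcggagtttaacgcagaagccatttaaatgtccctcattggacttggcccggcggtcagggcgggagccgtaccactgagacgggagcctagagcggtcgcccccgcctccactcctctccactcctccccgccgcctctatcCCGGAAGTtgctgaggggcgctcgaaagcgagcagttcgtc

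Rpl32 and Rpl9, both components of the large subunit, together held 43 of the 108 promoter reads of the Ad-Ets-1 library, counted over the 31 genes with a promoter region. Of these 31 genes, 4 met the rule for higher in the Ad-Ets-1 library, a ratio of at least 2 with at least 5 promoter reads in either precipitated library, against a background of 7.62% of named genes with a promoter region. The 4 were Rpl32, Rpl9, Rpl35a and the paralog Rpl7l1. One gene, Rpl5, met the rule for lower (a ratio of at most 0.5) against a background of 11.5%. These counts are small, and 30 of the 47 promoter regions held 2 or fewer reads in each precipitated library.

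Rpl32 held 29 promoter reads in the Ad-Ets-1 library, 4 in the Ad-GFP library and 4 in the input. The ratio between the precipitated libraries was 6.64 (1.60 to 61.9), the only interval above 1 among the genes for which one could be computed. All of its reads lay in the region chr6:115808553-115809264 (build mm10), which the files place at distance 0 from the start site and which contains Rpl32 starts on the minus strand. In the authors' deposited table this peak had a fold enrichment of 7.64 and a −log10 q of 6.81, the highest of any peak of these genes.

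Rpl9 held 14 reads in the Ad-Ets-1 library and 0 in both the Ad-GFP library and the input. With the 0 set to a floor of 3 reads, the ratio was 4.27. This value depends on the chosen floor, is not a lower bound and has no interval. The region, chr5:65391145-65391655, contains a start site of Rpl9 on the minus strand and a start site of Lias, the lipoic acid synthase gene, on the plus strand, so its reads cannot be assigned to either gene alone. The authors' deposited table gave this peak a fold enrichment of 5.46 and a −log10 q of 4.17. The window printed for Rpl9 overlaps this region and holds none of the marked words.

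The other called genes rested on few reads. Rpl35a, a large subunit gene mutated in some patients with Diamond-Blackfan anaemia, held 5 reads in the Ad-Ets-1 library, 2 in the Ad-GFP library and 0 in the input. They lay in 2 regions over start sites: the first had 3 Ad-Ets-1 and 0 Ad-GFP reads and the second had 2 of each. Rpl7l1, a paralog of Rpl7, held 5, 2 and 1 reads in the same order of libraries, in a region 417 bp inside the gene from its start. Both genes had a ratio of 2.29 with an interval from 0.221 to 144, so neither difference was detectable at this depth. Rpl5, whose protein binds the 5S ribosomal RNA and the p53 regulator Mdm2, held 3 reads in the Ad-Ets-1 library, 8 in the Ad-GFP library and 0 in the input, spread over 4 promoter regions. Its ratio was 0.344 (0.0414 to 3.20), again not a detectable difference.

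Genes below these thresholds are named here after their values were seen. Rpl28, a large subunit gene, held 6 reads in the Ad-Ets-1 library, 0 in the Ad-GFP library and 2 in the input, all in a region over its start. Its ratio with the 0 set to the floor was 1.83, which is not a lower bound and has no interval. Its fold enrichment in the authors' deposited table was 3.40, with a −log10 q of 0.861. Rps21, a small subunit gene, held 5 reads in the Ad-Ets-1 library, 4 in the Ad-GFP library and 0 in the input, a ratio of 1.15 (0.157 to 16.5). Its reads were split by position: the region over the start had 5 Ad-Ets-1 reads and 0 Ad-GFP reads, and a region at -739 bp had 0 and 4. Rpl37a, Rpl39 and Rps4x each had 4 Ad-Ets-1 and 0 Ad-GFP reads in a region at deposited distance 0 from a start. Rps20 had 4 and 2 in such a region. A further promoter region of Rpl37a, at -143 bp, had 0 and 2. By the protein-coding starts of GENCODE M21, the first Rpl37a region lay 23 bp past a start. The Rps4x region had no such start within 1 kb. In the opposite direction, Rpl35 and Rps10 each had 0 Ad-Ets-1 and 4 Ad-GFP promoter reads, Rpl26 had 1 and 4, and Rpl3 and Rpl17 each had 2 and 4. Rplp1, a protein of the ribosomal stalk, was named in 7 regions, none of them a promoter region.

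**Figure D1:**
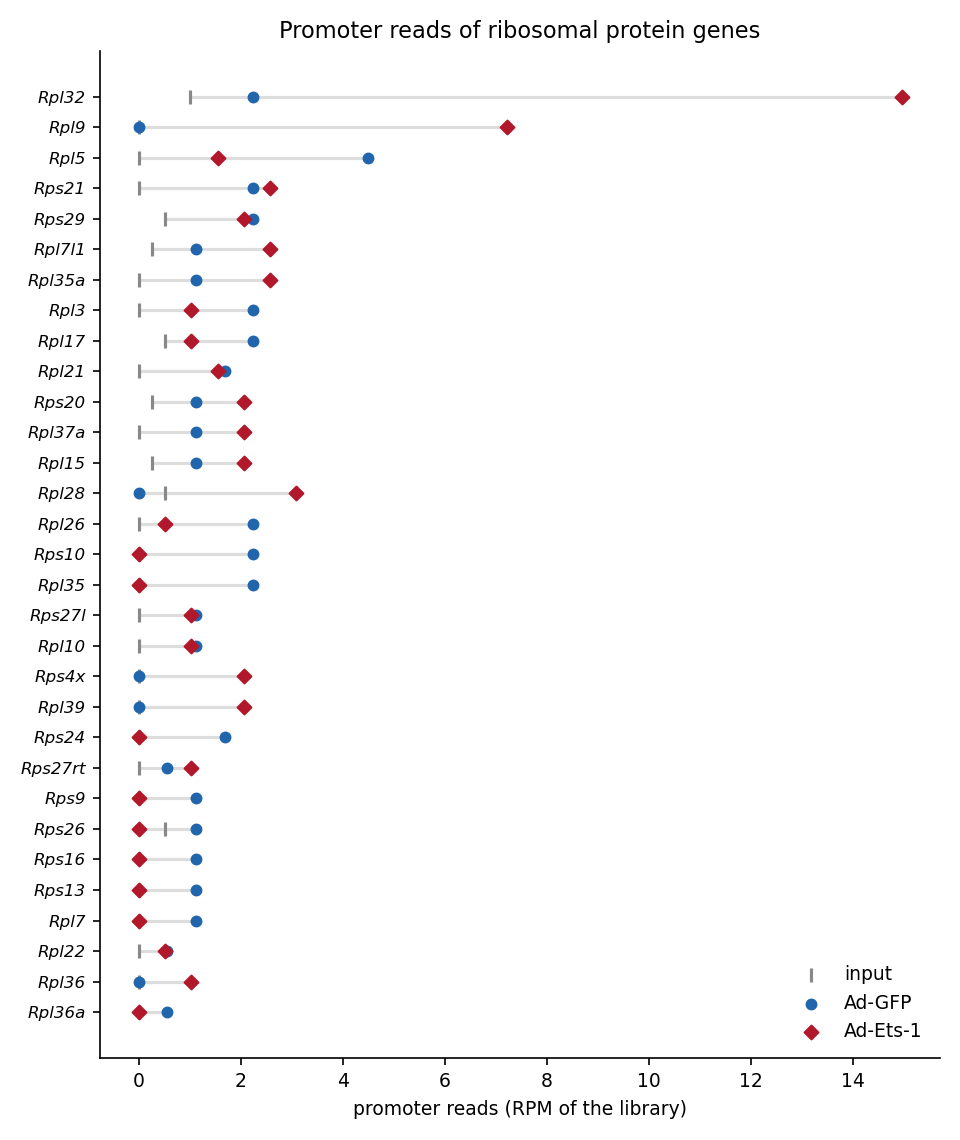
Promoter reads, scaled to the library total as RPM, for the 31 ribosomal protein genes with a promoter region, with 1 point per library (grey bar for input, blue circle for Ad-GFP, red diamond for Ad-Ets-1) and genes ordered by their reads. Rpl32 and Rpl9 stand to the right of all other genes in the Ad-Ets-1 library, while Rpl5 is highest in the Ad-GFP library.

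The shares of ribosomal protein genes with a promoter peak were near those of all genes. The authors' Ad-Ets-1 list had a promoter peak for 19 of the 47 genes (40.4%, exact Clopper-Pearson 26.4 to 55.7) against 37.7% of all named genes. The Ad-GFP list had one for 23 (48.9%, 34.1 to 63.9) against 48.6%. A peak in both lists was found for 11 genes, in the Ad-Ets-1 list alone for 8 (Rpl7l1, Rpl9, Rpl22, Rpl28, Rpl32, Rpl36, Rpl39 and Rps4x) and in the Ad-GFP list alone for 12. These were 23.4%, 17.0% and 25.5% of the 47 genes, against 24.2%, 13.4% and 24.4% of all named genes. At a q of at most 0.05, 2 genes, Rpl32 and Rpl9, remained in the Ad-Ets-1 list against a background of 1.66%, and 0 in the Ad-GFP list against 0.75%. The median of the best promoter fold per gene in the authors' Ad-Ets-1 list was 2.70 for the ribosomal protein genes and 1.86 for all genes with a promoter peak. In the Ad-GFP list both medians were 1.87. Peaks of these genes with a fold of 2.70 in the Ad-Ets-1 list had a q of 0.285. Over all peaks of the Ad-Ets-1 list, in promoters or not, the median fold was 1.86 both for these genes and for all peaks.

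Summed over genes, the ratio depended on whether a region lay over a start site. The 47 promoter regions held 108 reads in the Ad-Ets-1 library, 73 in the Ad-GFP library and 15 in the input. Their ratio was 1.36 (0.864 to 2.09), against 0.803 (0.787 to 0.819) for the promoter regions of all named genes, a set that leaves out regions of over 1000 reads. The interval for the ribosomal protein genes includes 1 but not the value of all genes. Without Rpl32 alone the ratio was 1.05. Ad-Ets-1 reads were higher in 17 of the 47 regions (36.2%), against 39.2% of the promoter regions of all genes. The regions were also split by position, a split chosen after the data were seen. A region counted as over a start at a deposited distance of 0 from any annotated transcript. Regions of Rpl3 and Rps13 counted so, although they lay 823 and 842 bp from a GENCODE M21 protein-coding start. The 17 regions over a start held 80 reads in the Ad-Ets-1 library and 23 in the Ad-GFP library. That ratio was 3.19 (1.57 to 6.39), against 1.14 (1.10 to 1.18) for the 3392 such regions of all genes.

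In RPM per kb over the 5597 bp these 17 regions cover, the Ad-Ets-1 level was 7.37, the Ad-GFP level 2.31 and the input level 0.363. The same Ad-Ets-1 and Ad-GFP levels for all genes were 5.59 and 4.91. Without Rpl32 and Rpl9 the Ad-Ets-1 level of the ribosomal protein genes was 4.36, below that of all genes, and the Ad-GFP level was 2.45. A region enters these sums only where a peak was called in either library, so the ratio also moves with how many were called in each: 70.6% of the 17 were in the Ad-Ets-1 list and 47.1% in the Ad-GFP list, against 53.2% and 59.4% of the 3392. Ad-Ets-1 reads were higher in 10 of the 17 regions and lower in 7, and 46.8% of the regions of all genes were higher. The sum without Rpl32 and Rpl9 was 37 against 19 reads, a ratio of 1.78 (0.770 to 4.19), whose interval includes the 1.14 of all genes.

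The 30 promoter regions that did not reach a start had the lower value in the Ad-Ets-1 library, as had those of all genes. They held 28 reads in the Ad-Ets-1 library and 50 in the Ad-GFP library, a ratio of 0.513 (0.247 to 1.03) against 0.701 for all genes. Regions higher in the Ad-Ets-1 library numbered 7 of these 30, or 23.3%, against 37.9% for all genes. In the 137 distal intergenic regions, with 120 and 202 reads, the ratio was 0.544 (0.389 to 0.756), and for all genes it was 0.730. The files assign such regions to the nearest gene, and Rps15a alone had 33 regions of all classes. Introns had 42 and 60 reads (0.641 against 0.684), 3′ UTR regions 7 and 23 (0.279, 0.0718 to 1.01, against 0.689) and downstream regions 26 and 28 (0.851 against 0.733). In each of these 5 classes away from the start, the interval for the ribosomal protein genes includes the value of all genes. Exon regions, with 0 and 3 reads, were too few for a ratio.

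**Figure D2:**
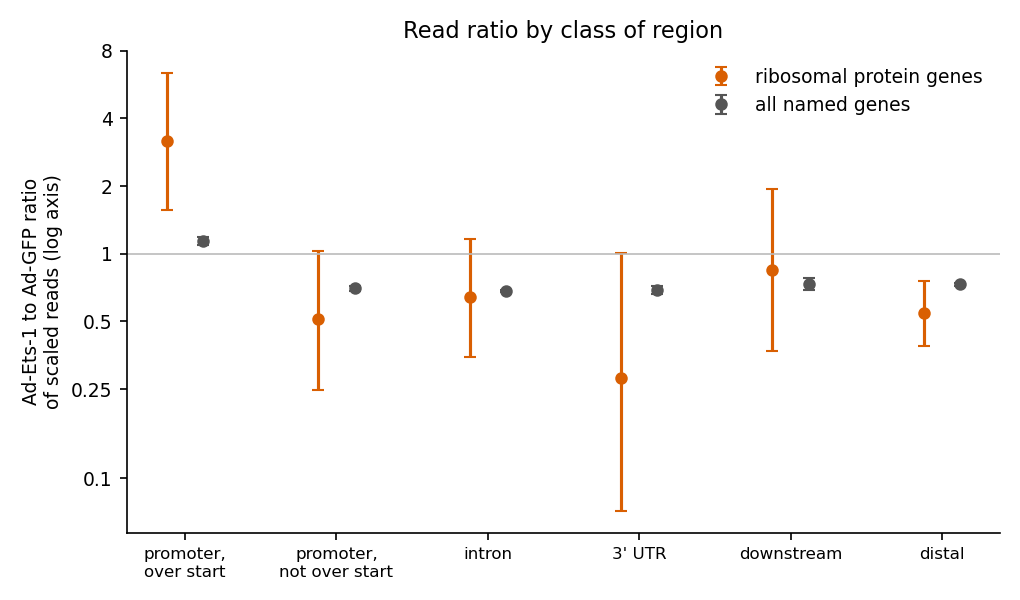
Ratio of scaled reads, Ad-Ets-1 to Ad-GFP, summed over the regions of each class on a log axis, for ribosomal protein genes (orange) and all named genes (grey), with 95% intervals for counting error in 1 library per group. The regions over a start site stand highest, at 3.19 for the ribosomal protein genes and 1.14 for all genes.

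**Figure D3:**
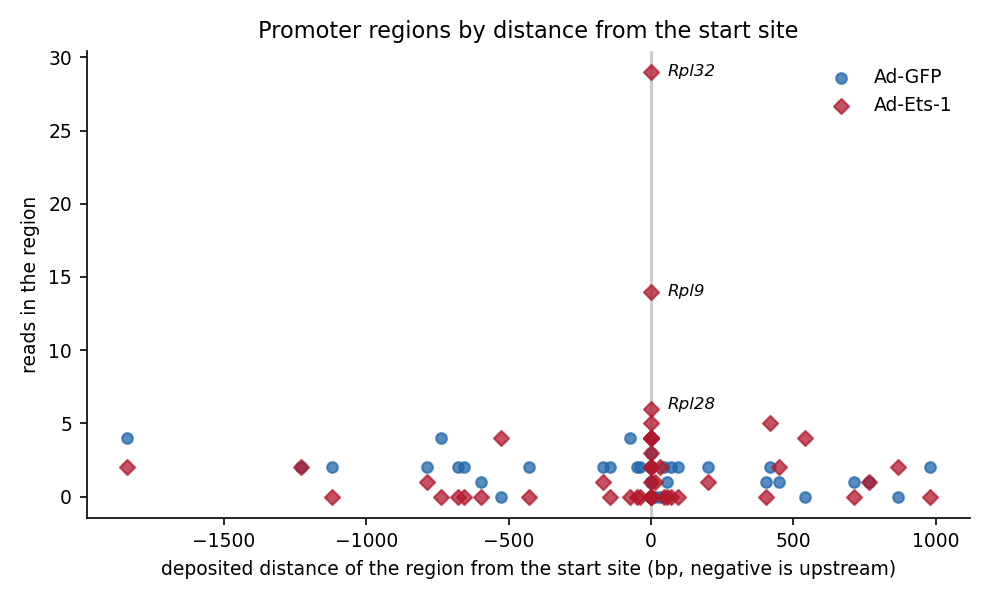
Reads in each promoter region of the ribosomal protein genes (vertical axis) by the deposited distance from the start site in bp (horizontal axis, negative is upstream), with blue circles for the Ad-GFP library and red diamonds for the Ad-Ets-1 library. Regions with over 5 reads lie at distance 0 and belong to Rpl32, Rpl9 and Rpl28 in the Ad-Ets-1 library.

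By subunit, the promoter regions of the core large subunit genes held 82 reads in the Ad-Ets-1 library and 43 in the Ad-GFP library, a ratio of 1.75 (0.993 to 3.01). Those of the core small subunit genes held 17 and 25, a ratio of 0.623 (0.239 to 1.60). The intervals overlap, and the large subunit sum contains Rpl32 and Rpl9. The 3 paralogs with promoter regions (Rpl7l1, Rps27l and Rps27rt) held 9 and 5 reads, a ratio of 1.65 (0.297 to 9.83). Rps27l is a paralog of Rps27 and a known p53 target.

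Since 61.1% of the regions in the comparison table carry no gene name, start sites were also taken from GENCODE M21, whatever gene the file named. Of the 86 ribosomal protein genes, 9 (10.5%, exact Clopper-Pearson 4.90 to 18.9) had an Ad-Ets-1 region over a start against 5.54% of protein-coding genes. For Ad-GFP regions this was 7 genes (8.14%, 3.34 to 16.1) against 5.14%. Both shares have intervals that include the background, and ribosomal protein genes have 2.09 annotated starts per gene against 1.90. The 13 regions over these starts held 79 reads in the Ad-Ets-1 library, 21 in the Ad-GFP library and 10 in the input. That ratio was 3.45 (1.68 to 7.20) against 1.26 (1.21 to 1.32) for all protein-coding genes. Most of these regions were already in the sum by name, so the value is not independent of it. Rpl32 and Rpl9 held 43 of the 79 reads, and the ratio without them was not computed here. Within 1 kb of a start the ratio was 1.54 (0.960 to 2.43) against 0.949. A region over the start of Rps10, a small subunit gene, at chr17:27634942-27635494 held 8 and 4 reads (ratio 1.83, 0.263 to 20.3). The files name this region for the RPS10-NUDT3 read-through, so it is not in the counts of Rps10 given by name, which are 0 and 4 promoter reads. With it Rps10 would hold 8 and 8.

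The promoter sequences held several of the words known from ribosomal protein genes. A pyrimidine word (CTCTTT or CTTTCC, which overlap in CTCTTTCC) stood on the gene strand within 20 bases of the start in 28.6% of the 42 windows of the named genes, against 3.29% of the 32851 windows of all promoters. Rpl28 and Rpl35a carry CTCTTT at position 1, counted from the start site, followed by CC. The word AAGATGGC, a YY1-like word searched on both strands, was in 14.3% against 2.75%. Overlapping windows of Rpl35a hold the same copy of this word. By gene it was in 4 of 35 (11.4%) against 3.19%. In the printed Rpl35a window it lies on the opposite strand at position 9. GGGCGG, the GC box, was in 54.8% against 35.7%, and TATAAA in 7.14% against 13.6%. Median GC content of the windows was 56.8%, against 52.7% in all promoters.

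An 8-letter ETS word, CCGGAAGT or CAGGAAGT on either strand, was in 19.0% of the windows of the named genes, against 7.07% of all promoters. Of the 81 windows of all 69 ribosomal protein genes in the table, 17 held such a word. The shorter CCGGAA or CAGGAA, which lie within the longer words, were in 64.3% against 41.4%. The 7 named genes with an 8-letter word were Rpl26, Rpl31, Rpl34, Rpl35, Rps6, Rps13 and Rps27l. In Rpl26, Rpl31 and Rps27l the word begins at positions 5, 9 and 10, just past the start, and in Rps6, the small subunit protein phosphorylated by S6 kinases, at position -91.

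Among the genes with a promoter window, those with an 8-letter ETS word were not those with the most reads at the start. Of 18 such words in 16 ribosomal protein genes, 1 lay inside a listed region: the word of Rps27l at chr9:66946095-66946102, in a region with 2 Ad-Ets-1 reads, 1 Ad-GFP read and 0 input reads. For 4 of the words a region lay within 1 kb, and the reads there were 1 and 2 for Rpl26, 0 and 4 for Rpl35, 0 and 2 for Rps13, and 2 and 1 for Rps27l (Ad-Ets-1, then Ad-GFP). Windows without the word were overlapped by an Ad-Ets-1 peak in 11 of 64 cases (17.2%, 8.90 to 28.7), and windows with it in 1 of 17 (5.88%, 0.149 to 28.7). Some windows of the same gene overlap each other and share a peak, as those of Rpl35a and of Rps21 do. The windows are thus not independent, and these intervals are too narrow. Over all promoters the shares were 5.92% without and 8.62% with the word. The Ad-GFP list overlapped 7 of the 64 windows (10.9%) and 1 of the 17, and over all promoters 6.53% without and 6.72% with the word. A match is a description of the letters and not a binding site. Of the genes with reads at the start, Rps21 holds CCGGAA at positions -88 and -26, and neither the Rpl9 nor the Rpl28 window printed above holds either of the shorter words.

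**Figure D4:**
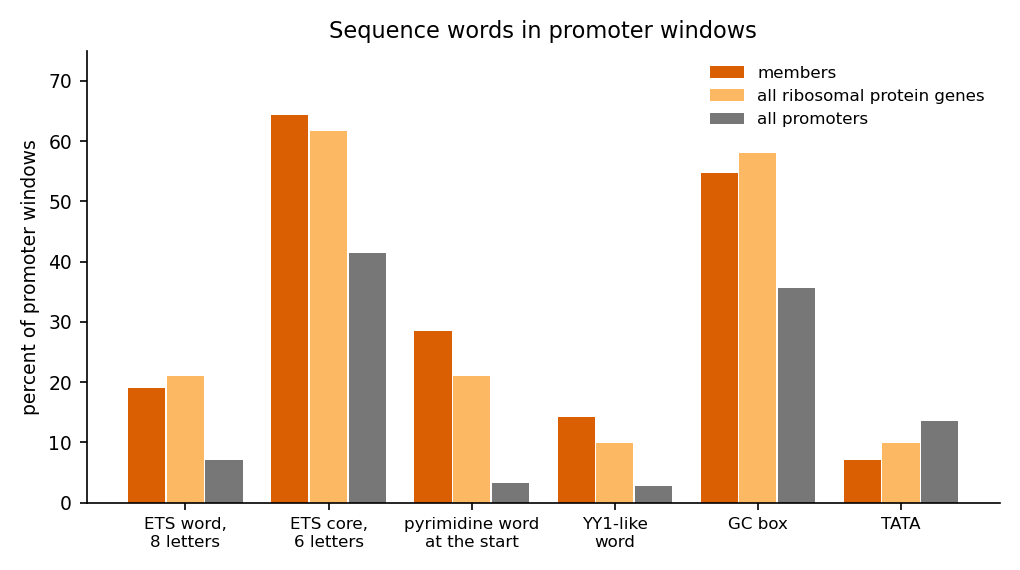
Percent of promoter windows of 300 bases that hold each word, for the named ribosomal protein genes (dark orange, 42 windows), all ribosomal protein genes of the RefSeq table (light orange, 81 windows) and all promoters (grey, 32851 windows). The ETS, pyrimidine, YY1-like and GC box words are more frequent in the ribosomal protein promoters and TATAAA less frequent, at 7.14% against 13.6% of all promoters.

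Other genes of translation and of ribosome biogenesis were counted by the same rules. Of 25 translation factors and related genes, 19 were named, and 15 had a promoter region. Pabpc1, the poly(A)-binding protein, met the rule for higher with 5 Ad-Ets-1 and 2 Ad-GFP reads. The rule for lower was met by 4: Eef1a1, an elongation factor, with 2 and 9 reads, and Eif3f, Eif4b and Nap1l1. Of 24 biogenesis genes 21 were named and 13 had a promoter region. There Rrn3, an initiation factor of RNA polymerase I, was higher with 6 and 1 reads, and Gar1, Wdr12 and Lyar were lower. Of all named genes with a promoter region, 7.62% met the rule for higher and 11.5% the rule for lower. The intervals of the ratios of all these called translation and biogenesis genes include 1, so none of the differences was detectable at this depth. A promoter peak in the Ad-Ets-1 list was present for 8 genes of each list. These were 42.1% of the named translation genes and 38.1% of the named biogenesis genes, against 37.7% of all named genes. In the Ad-GFP list one was present for 12 translation genes (63.2%) and 9 biogenesis genes (42.9%), against 48.6%. The exact Clopper-Pearson interval of each of these shares includes the value of all named genes.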

How the data were processed

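The members and gene lists were chosen with earlier results of these data known. The submitters' processing notes name the tools FastQC, Trimmomatic, BWA 0.7.12 (an aligner) and MACS2 2.1.0 (a peak caller) and the build mm10. Settings, and any use of the input by the peak caller, were not given in the sources used here. Each peak in the authors' lists carries a score, −log10 p and q values and a fold (ratio) enrichment, per the file headers, and these were used only within a list. The deposited comparison table gives counts of reads by region, RPM values, an RPM ratio with its log2, and flags for the list that holds a region. Annotation classes, gene names and distances are those of the files, and 98.0% of the 248 member regions had transcript coordinates the same as in GENCODE M21. Even numbers made up 72.0% of nonzero Ad-Ets-1 counts, 74.5% of Ad-GFP counts and 19.0% of input counts, so ratios were given intervals on fragments and none was given against the input.

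Counts were summed over each gene's promoter regions (up to 2 kb from a start), and the recovered library totals set the scale. A 0 was set to 3 reads, and no ratio was formed where both libraries held 3 or fewer. Genes were named if called, if they held at least 8 promoter reads in either precipitated library, or if they were Rpsa, Rplp0, Rplp1 or Rplp2. Other names were chosen after their values were seen. Shares have 95% exact Clopper-Pearson intervals. Some values of the gene lists are not reported here. Sequence words were counted in RefSeq promoter windows. Scripts were tested on simulated data and used scipy 1.17.1, pandas 2.3.3, numpy 2.4.6 and, for plots, matplotlib 3.10.9, under Python 3.11.15. Alternatives covered the q and fold limits, the read minimum, the floor, the scaling, the promoter distance, the paralogs and single genes.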

Additional observations from a re-analysis of the deposited data

Results flagged for a closer look

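A region downstream of Rps7, a small subunit gene, held 10 reads in the Ad-Ets-1 library, 0 in the Ad-GFP library and 1 in the input. It drew attention because it lies outside the promoter comparison and exceeds the Ad-GFP library. It lies at chr12:28627724-28627972 (mm10), 3945 bp from the start, with a fold enrichment of 4.51 and a −log10 q of 2.44 in the authors' deposited table.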

How the results depend on the processing

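Of 44 alternative values, 35 stayed within the 95% counting interval of the reported value, 9 moved beyond that and 0 reversed. For counts of genes, and for ratios without an interval, the limit was 1.5 times the reported value. A reversal could be recorded only for a ratio whose limits excluded 1 and never for a count, so the 0 says little. Where all promoter regions of a gene lay within 1 kb, that alternative could not change its ratio. The intervals are wide, so a value within them can still differ by more than 1.5 times. Genes with a promoter peak in the Ad-Ets-1 list numbered 2 at a q of at most 0.05 and 4 at a fold of at least 3, instead of 19. In the Ad-GFP list they numbered 0 and 1, instead of 23. Genes called higher numbered 2 with at least 8 reads and 2 at a ratio of at least 3, instead of 4, and genes called lower numbered 0 at a ratio of at least 3, instead of 1. The summed promoter ratio of 1.36 became 9.01 over regions of 5 or more reads, and 1.05 without Rpl32. The 9.01 is set by its own filter, since no promoter region reached 5 reads in the Ad-GFP library, and it says nothing about the genes. The other stricter limits leave fewer genes by construction. The sum over start sites, with alternatives chosen after seeing the data, was 2.46 without Rpl32 and 1.78 without Rpl32 and Rpl9. Within 1 kb the ratio of Rpl5 was 0.153, instead of 0.344. The share of windows with an ETS word was 64.3% with the 6-letter words, instead of 19.0%. No paired analysis was possible because there was only 1 library in each arm. Depth limits every single gene: a gene with 5 reads against 2 has an interval that reaches from 0.221 to 144.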

Other observations

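Outside promoters, further regions of ribosomal protein genes with 6 or more reads in a precipitated library, other than that of Rps7, are given here, named after their values were seen. A region classed as downstream and named for Rps23, a small subunit gene, lay 8149 bp past the start. Which gene its class refers to was not tested. This region held 6 reads in the Ad-Ets-1 library, 0 in the Ad-GFP library and 0 in the input. A region downstream of Rps13 held 2, 8 and 0, an intron of Rps26 0, 6 and 0, and a distal region near Rpl10l, the testis paralog of Rpl10, 2, 6 and 0.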
